A study of Mus musculus with 12 samples.

Results

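The 44 genes described here run the cell division cycle: 9 act at the G1/S transition, 15 in DNA replication and 20 in G2 and mitosis (G2/M). They were chosen by name, with earlier results of these data known. All 44 were found by symbol among the 49315 genes of the count files. All 44 passed the filter on low counts, which left 16844 genes to test. RNA was sequenced in 12 libraries of wild type MIN6 cells, an insulin-secreting line from a mouse insulinoma. In the Rap group (3 libraries) amino acids were given together with Rap for 3 h, a name that the labels do not spell out. In the re-added group (3 libraries) amino acids were given for 3 h, in the starved group (3 libraries) amino acids were withheld for 16 h, and the control group (3 libraries) was not treated. The labels give for all groups growth in DMEM with 15% FBS and 2 mM glutamine. They do not give the dose of Rap, the make-up of the medium without amino acids, or how long the Rap and re-added cells had been without amino acids before. MIN6 cells come from a transgenic mouse that made a viral large T antigen under an insulin promoter, and this antigen is known to bind the retinoblastoma proteins described next.

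In G1 the D-type cyclins, with their partners Cdk4 and Cdk6, phosphorylate the retinoblastoma protein and so free E2F transcription factors. Cyclin E with Cdk2 completes this step, and E2F factors turn on genes of DNA replication. Cdc6 and Cdt1 load the ring of Mcm2 to Mcm7, the replicative helicase, onto origins before polymerases and the Pcna clamp copy the DNA. Genes of G2 and mitosis, those of cyclin A, cyclin B and Cdk1 among them, are turned on later. Many carry a promoter element named the cell cycle homology region (CHR). In mouse β-cells Ccnd2 is the D-type cyclin that growth after birth depends on, and Cdk4 is needed for a normal islet mass. The series title names mTORC1, the kinase complex that senses amino acids.

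The libraries held 18555958 to 25631056 counted reads. All 15 β-cell markers were above 0 in every library and summed to 46089.9 to 72712 CPM (read counts scaled to a common total per library), although Ucn3, a marker of mature β-cells, stayed at 0.424 to 1.48 CPM. Markers of fibroblasts, leukocytes and endothelium, 33 genes in all, differed between libraries of 1 group. They summed to 91.7, 88 and 86.3 CPM in the Rap libraries, 652, 95.3 and 93.1 in the re-added, 1626, 107 and 769.6 in the starved and 1644, 1946 and 1873 in the control libraries. None of these markers was at 0 in all 3 libraries of a group. Markers of lung epithelium, 8 genes, followed the same order, with 44.7 to 54.6 CPM in Rap, 60.9 to 720.1 in re-added, 86.9 to 1553 in starved and 1580 to 1890 CPM in control libraries. Control replicate 2 departed from its group by transcript length: over 42 of the 44 genes (Ccnd1 and Cdk6 left out) its level relative to the mean of control replicates 1 and 3 was lower the longer the exons of a gene. The rank correlation was -0.72, given as a description over genes of 1 library, and for the other 11 libraries, each set against the rest of its group, it ran from -0.59 to 0.65. The ratio of control replicate 2 ran from 0.45 for Pole to 1.31 for Birc5, and the ratios of the other 11 libraries lay between 0.788 and 1.54.

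**Figure D1:**
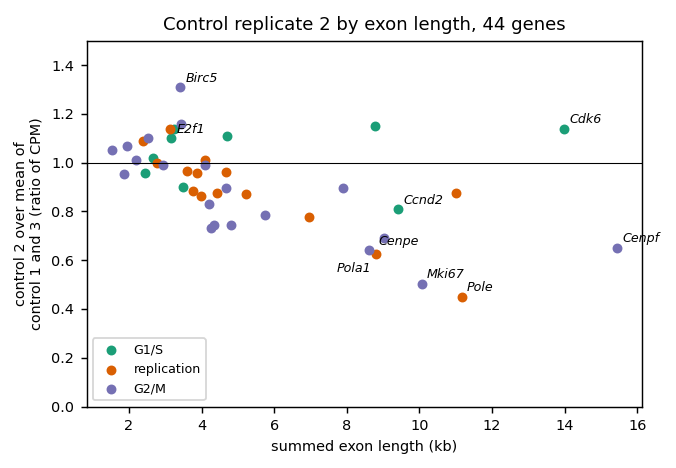
Each point is 1 of the 44 genes, coloured by phase, with its summed exon length in kb on the x axis and its CPM in control replicate 2 divided by the mean of control replicates 1 and 3 on the y axis. Long genes such as Pole (0.45) and Mki67 lie under 1 and the short gene Birc5 lies at 1.31.

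The 3 phases moved in different ways when amino acids were withheld and given back. In starved against control cells 6 of the 44 genes were higher, beside 24.3% of all tested genes, and 18 were lower, beside 14.6%. Without control replicate 2, in which long genes were low, 7 were higher, beside 22% of all genes, and 20 lower, beside 12%. All 6 higher genes of the full fit were replication genes. None of the 9 G1/S genes and none of the 20 G2/M genes was higher, while 4 and 12 of them were lower. The median log2 fold change was -0.55 for G1/S, 0.14 for replication and -0.32 for G2/M genes, beside 0.01 for all genes. The G1/S medians, here and on re-addition, include the low values of Ccnd1 and Cdk6. These 2 genes were not called in a main comparison and varied with the markers of other cell types. In re-added against starved cells 10 of the 44 were higher, beside 18.4% of all genes, and 15 were lower, beside 18.8%. Here 11 of 15 replication genes were lower and 1 was higher (median -0.52), 6 of 20 G2/M genes were higher and 2 lower (median 0.10), and 3 of 9 G1/S genes were higher and 2 lower (median -0.27), beside a median of -0.06 for all genes. In Rap against re-added cells 2 of the 44 genes were higher, beside 4.55%, and 1 was lower, beside 3.43% of all genes, and 41 were not called. A gene was called at an adjusted p under 0.05 in the quasi-likelihood test of edgeR. Values given for a comparison without another unit are log2 fold changes. Whether the libraries of 1 group stem from separate cultures is not in the labels, and the p-values therefore reflect the spread between the libraries at hand, which may be technical. In bulk RNA fewer cells in a phase of the cycle and less RNA of a gene per cell cannot be told apart.

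An F test over the 4 groups called 36 of the 44 genes, beside 71.9% of all genes. The 8 genes that it did not call were Cdk4, Cdc6, Pole, Top2a, Mki67, Kif23, Tpx2 and Foxm1. The comparisons share libraries, since the starved group stands in both the first and the next, so their values are set side by side here and not counted as independent. Of the 6 replication genes higher in starved cells, all 6 (Cdt1, Mcm2, Mcm4, Mcm6, Mcm7 and Pola1) were lower in re-added cells. Of the 12 G2/M genes lower in starved cells 5 were higher in re-added cells. The spread of the shared starved libraries enters these comparisons with opposite sign, which favours such reversals. The share of reversals over all genes is not given here, so whether these counts exceed it was not tested. The share of higher calls among all called genes in starved against control depended on scaling. It was 62.5% as analysed, 54.2% with RLE factors and 44.6% with upper-quartile factors, which moved the median of all genes by -0.14. By limma on log2(TPM + 0.1), where the unit and the test change as well, it was 73.5% and the median moved by 0.12. In Rap against re-added cells that share was 57.0% as analysed, 51.7% with RLE factors, 52.6% with upper-quartile factors and 28.5% by limma on log2(TPM + 0.1).

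**Figure D2:**
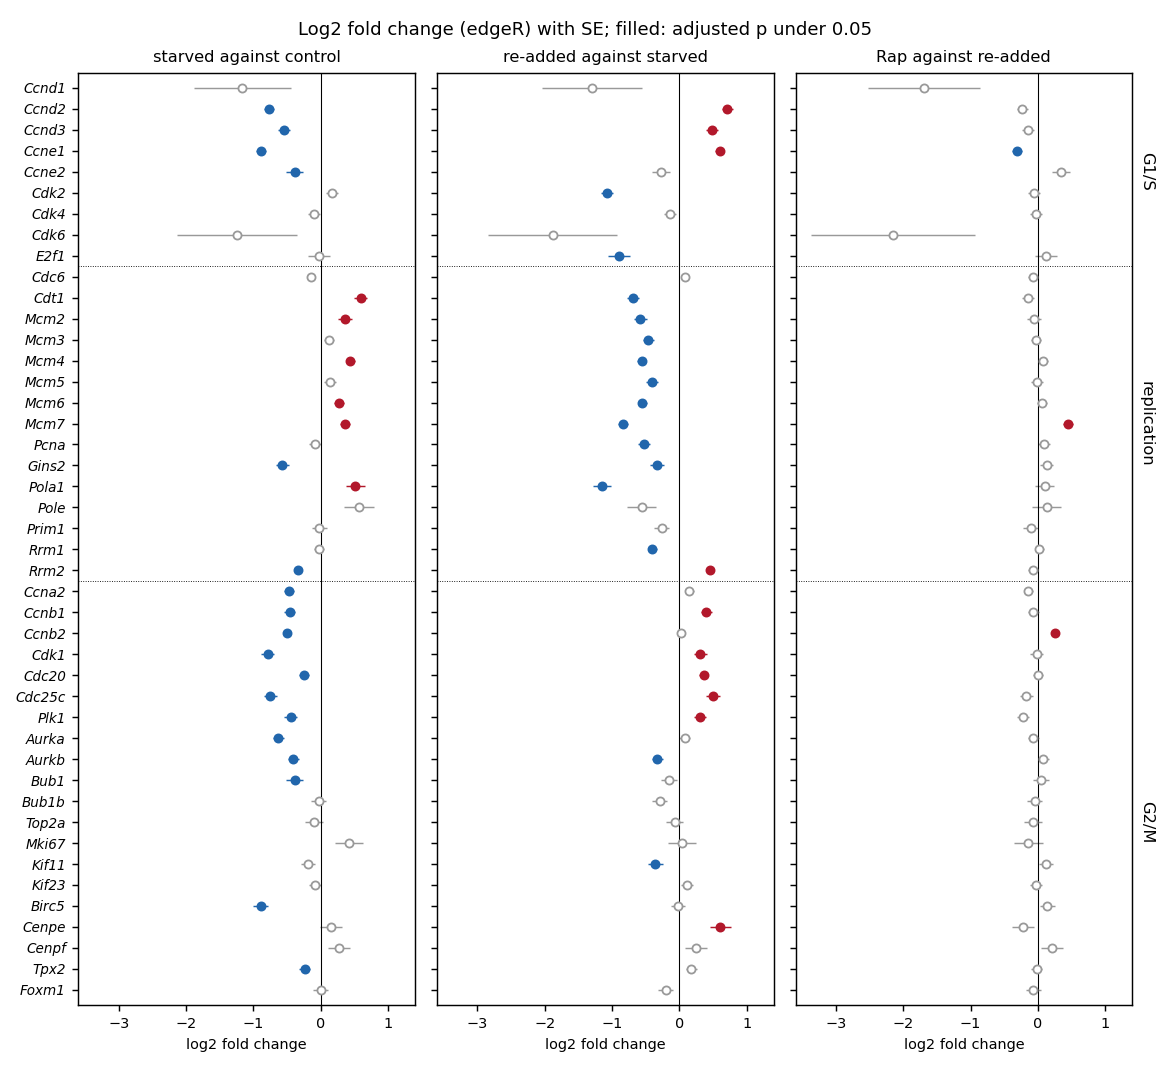
Log2 fold change of each of the 44 genes (points) with its standard error (lines) in the 3 main comparisons, rows ordered by phase and filled points marking an adjusted p under 0.05. Starved against control shows 6 filled points to the right of 0, all in replication, and re-added against starved shows 11 replication genes to the left.

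Promoter windows show what the replication and the G2/M genes have in their sequence. RefSeq windows of 300 bases (250 before to 50 after a start, GRCm38.p6) matched 33 of the 44 genes, in 35 windows, out of 32817 windows in all. One of the E2F motifs TTTGGCGC, TTTCCCGC, TTTGGCGG and TTTCGCGC, on either strand, stood in 7 of 13 replication windows (53.8%), in 1 of 7 G1/S windows, in 1 of 15 G2/M windows and in 2.36% of all windows. The CHR motif TTTGAA stood in 11 of 15 G2/M windows (73.3%), 1 of 13 replication windows, 0 of 7 G1/S windows and 17.9% of all windows, and its variant TTCGAA in 3 of 15 G2/M windows and 1.56% of all. The box CCAAT stood in 14 of 15 G2/M, 11 of 13 replication and 2 of 7 G1/S windows and in 37.4% of all windows. A match is a run of letters, not a site of binding. The 200 bases before the start of 4 genes that were called in re-added against starved cells are printed on the strand of the gene, with the E2F and CHR letters in capitals: Mcm6 and Cdk2 were lower there, and Cdk1 and Cdc20 were higher.
Mcm6: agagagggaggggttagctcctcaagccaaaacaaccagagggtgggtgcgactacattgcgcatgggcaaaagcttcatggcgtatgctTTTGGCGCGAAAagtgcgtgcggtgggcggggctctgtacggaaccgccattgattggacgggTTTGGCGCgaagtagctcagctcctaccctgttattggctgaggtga
Cdk2: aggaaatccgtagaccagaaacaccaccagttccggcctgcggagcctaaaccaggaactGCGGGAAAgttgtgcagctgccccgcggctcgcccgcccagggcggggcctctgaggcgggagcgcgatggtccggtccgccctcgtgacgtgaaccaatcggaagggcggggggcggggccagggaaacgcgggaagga
Cdk1: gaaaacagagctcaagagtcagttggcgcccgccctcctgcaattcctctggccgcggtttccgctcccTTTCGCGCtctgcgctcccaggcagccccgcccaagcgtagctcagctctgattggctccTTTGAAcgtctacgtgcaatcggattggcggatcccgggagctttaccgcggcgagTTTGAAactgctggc
Cdc20: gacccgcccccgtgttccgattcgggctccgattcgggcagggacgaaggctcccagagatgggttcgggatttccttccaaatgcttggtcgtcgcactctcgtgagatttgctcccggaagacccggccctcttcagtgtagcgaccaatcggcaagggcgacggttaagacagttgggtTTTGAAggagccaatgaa
They span chr1:128359706-128359905, minus strand (Mcm6), chr10:128705052-128705251, minus strand (Cdk2), chr10:69352913-69353112, minus strand (Cdk1) and chr4:118437344-118437543, minus strand (Cdc20). In Mcm6 the first run in capitals holds TTTGGCGC and, overlapping it on the other strand, TTTCGCGC. Cdk2 holds GCGGGAAA, the E2F motif TTTCCCGC read on the other strand. Cdk1 holds an E2F motif and a pair of CHR motifs, and Cdc20 holds 1 CHR motif.

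Among the D-type cyclins Ccnd2 and Ccnd3 were lower in starved than in control cells and higher again in re-added cells. Per length of transcript Ccnd2 was by far the most abundant of them: it averaged 95.4 ± 6.27 TPM in Rap cells, 120.0 ± 4.36 in re-added cells, 74.5 ± 1.57 in starved cells and 117 ± 19.5 in control cells (SD, n = 3 each). Ccnd3 averaged 17.5 ± 1.15 TPM in Rap cells, 20.9 ± 0.77 in re-added cells, 15.1 ± 1.76 in starved cells and 20.2 ± 1.85 in control cells. Ccnd2 (chr6:127125162-127152193, minus strand, outer exon bounds) stood at 346, 345 and 323 CPM in the Rap libraries, 389.9, 392 and 406 in the re-added, 227, 260.5 and 239.6 in the starved and 437, 366 and 434 in the control libraries. The 3 starved libraries were the lowest of the 12, and neither the Rap nor the re-added libraries overlapped them. Its log2 fold change was -0.77 (SE 0.08, adjusted p = 3.21e-05) in starved against control and 0.71 (SE 0.08, adjusted p = 4.14e-05) in re-added against starved cells. Ccnd3 (chr17:47505051-47599691, plus strand) stood at 58.4, 59.9 and 55.3 CPM in the Rap libraries, 64.1, 63.1 and 65.7 in the re-added, 46.5, 42.6 and 47.9 in the starved and 57.8, 74.9 and 67.5 in the control libraries. Again the starved libraries were lowest, with -0.55 (SE 0.09, adjusted p = 0.000597) against control and 0.49 (SE 0.09, adjusted p = 0.0011) in re-added against starved cells. Both calls of both genes held in every alternative run, including libraries matched on the other-cell markers.

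Ccnd1 and Cdk6, a D-type cyclin and its kinase partner, varied widely between libraries of the re-added and of the starved group, along with the markers of other cell types. Ccnd1 (chr7:144929931-144939925, minus strand) had 21, 25 and 18 reads in the Rap libraries, 163, 30 and 36 in the re-added, 452, 26 and 178 in the starved and 479, 407 and 412 in the control libraries. Starved replicates 1 and 2 thus lay near the control and near the Rap libraries. Divided by the summed markers of fibroblasts, leukocytes and endothelium, Ccnd1 lay between 9.56 and 16.4 CPM per 1000 CPM of markers in all 12 libraries. Cdk6 (chr5:3341485-3531008, plus strand) had 4, 4 and 3 reads in the Rap libraries, 45, 2 and 8 in the re-added, 163, 3 and 71 in the starved and 182, 157 and 153 in the control libraries, or 0.993 to 4.32 CPM per 1000 CPM of markers. Neither gene was called in a main comparison: Ccnd1 had -1.17 (SE 0.72, adjusted p = 0.211) in starved against control, -1.30 (SE 0.74, adjusted p = 0.187) in re-added against starved and -1.69 (SE 0.83, adjusted p = 0.26) in Rap against re-added cells, and the values of Cdk6 were -1.25, -1.88 and -2.15 with standard errors of 0.89 to 1.22. The F test over the 4 groups called both (adjusted p = 0.0042 for Ccnd1 and 0.00585 for Cdk6). Both were called lower in re-added against control cells (-2.47 and -3.13), where the marker sum as a covariate gave 0.05 and 0.02 and the calls were lost without re-added replicate 2 (-2.09 and -2.60) or 3 (-2.10 and -2.73). Both were also called lower in Rap against starved cells, with -2.99 (SE 0.83, adjusted p = 0.0139) for Ccnd1 and -4.03 (SE 1.17, adjusted p = 0.0167) for Cdk6. There the marker covariate gave -0.08 and -0.03, libraries of like marker levels gave -0.28 and 0.28, and both calls were lost without starved replicate 1 (-2.04 and -3.07) or Rap replicate 3 (-2.81 and -3.83). That of Cdk6 was lost as well without Rap replicate 1 (-4.12) or 2 (-4.13). Without starved replicate 1 Ccnd1 was called in starved against control (-2.17), and without starved replicate 2 or re-added replicate 1 both genes were called in re-added against starved cells (-1.82 and -2.61 for Ccnd1, -2.45 and -3.84 for Cdk6). The other 42 genes did not follow these libraries in that way: the ratio of starved replicate 1 to starved replicate 2 ran from 0.853 to 1.23 over them (median 0.944), and that of re-added replicate 1 to re-added replicate 2 from 0.816 to 1.17. Part of the exons of Ccnd1 (23.4%) overlaps Oraov1 on the other strand, and the strand setting of the counting is not given in the sources used here.

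**Figure D3:**
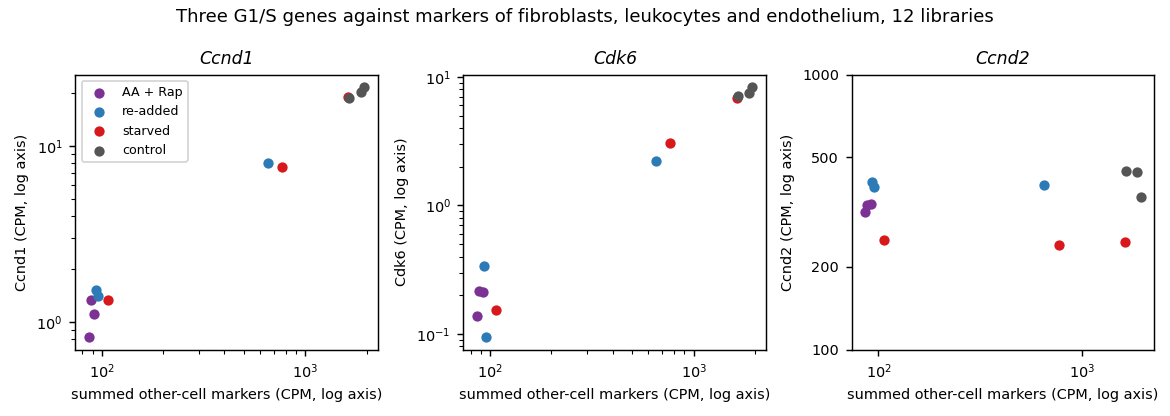
CPM of Ccnd1, Cdk6 and Ccnd2 in each of the 12 libraries (points, coloured by group) against the summed CPM of 33 markers of fibroblasts, leukocytes and endothelium, on log axes. Ccnd1 and Cdk6 lie along the marker sum, whereas Ccnd2 is lowest in the 3 starved libraries, whose marker sums run from 107 to 1626 CPM.

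The E-type cyclins and Cdk2, which act after cyclin D, gave 3 different patterns. Ccne1 (chr7:38097984-38107534, minus strand) stood at 52.4, 51.6 and 56 CPM in the Rap libraries, 62.8, 68 and 67.6 in the re-added, 40.2, 45.7 and 44.9 in the starved and 80.1, 84 and 78.1 in the control libraries. No 2 groups overlapped: control was highest, then re-added, Rap and starved. The log2 fold changes were -0.89 (SE 0.07, adjusted p = 4.07e-06) in starved against control, 0.60 (SE 0.07, adjusted p = 5.03e-05) in re-added against starved and -0.31 (SE 0.07, adjusted p = 0.0189) in Rap against re-added cells. Ccne2 (chr4:11191351-11204779, plus strand) stood at 85.6, 90.6 and 92.6 CPM in the Rap libraries, 74, 73.4 and 65.4 in the re-added, 81.5, 99.8 and 74.6 in the starved and 133, 106 and 94.8 in the control libraries. The starved and control libraries overlapped, and 7 alternatives lost the call (-0.39, SE 0.13, adjusted p = 0.0312). Among them were the fits without control replicate 1 (-0.23) or starved replicate 3 (-0.35), limma on log2(TPM + 1) (-0.25) and the fit of the 2 groups alone (-0.43). Ccne2 shares 17.4% of its exon length with Ints8 on the other strand. Cdk2 (chr10:128697939-128705051, minus strand) stood at 24.7, 22.2 and 21.1 CPM in the Rap libraries, 23.5, 24.8 and 22.6 in the re-added, 46.2, 55.5 and 47.7 in the starved and 44.4, 44.2 and 44.5 in the control libraries. It was not called in starved against control cells (0.17, adjusted p = 0.148), and in re-added cells it was at 0.475 times its level in starved cells (log2 fold change -1.07, SE 0.09, adjusted p = 3.6e-06). The Rap libraries overlapped the re-added ones and gave -0.06 (adjusted p = 0.728).

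E2f1 and Cdk4 complete the G1/S genes. E2f1 (chr2:154559407-154569892, minus strand), an activating factor of the E2F family, stood at 80.7, 67.7 and 66.5 CPM in the Rap libraries, 57, 71.2 and 69.4 in the re-added, 98.2, 118 and 152 in the starved and 105, 136 and 135 in the control libraries. Starved and control libraries overlapped (-0.03, adjusted p = 0.877), and every Rap and re-added library was below every starved and control library. Re-added against starved gave -0.90 (SE 0.16, adjusted p = 0.000942). Cdk4 (chr10:127063534-127067920, plus strand) stood at 196, 191 and 212 CPM in the Rap libraries, 205, 206 and 201 in the re-added, 202, 245 and 226 in the starved and 239.9, 267 and 213 in the control libraries, and no main comparison called it (-0.10, -0.14 and -0.03). At 163 ± 5.17 TPM in Rap cells, 179 ± 1.26 in re-added cells, 199 ± 4.79 in starved cells and 195 ± 10.1 in control cells it was the more abundant kinase partner of cyclin D, beside a Cdk6 of 0.0367 ± 0.00938 TPM in Rap cells, 0.179 ± 0.234 in re-added cells, 0.689 ± 0.695 in starved cells and 1.44 ± 0.0636 in control cells.

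**Figure D4:**
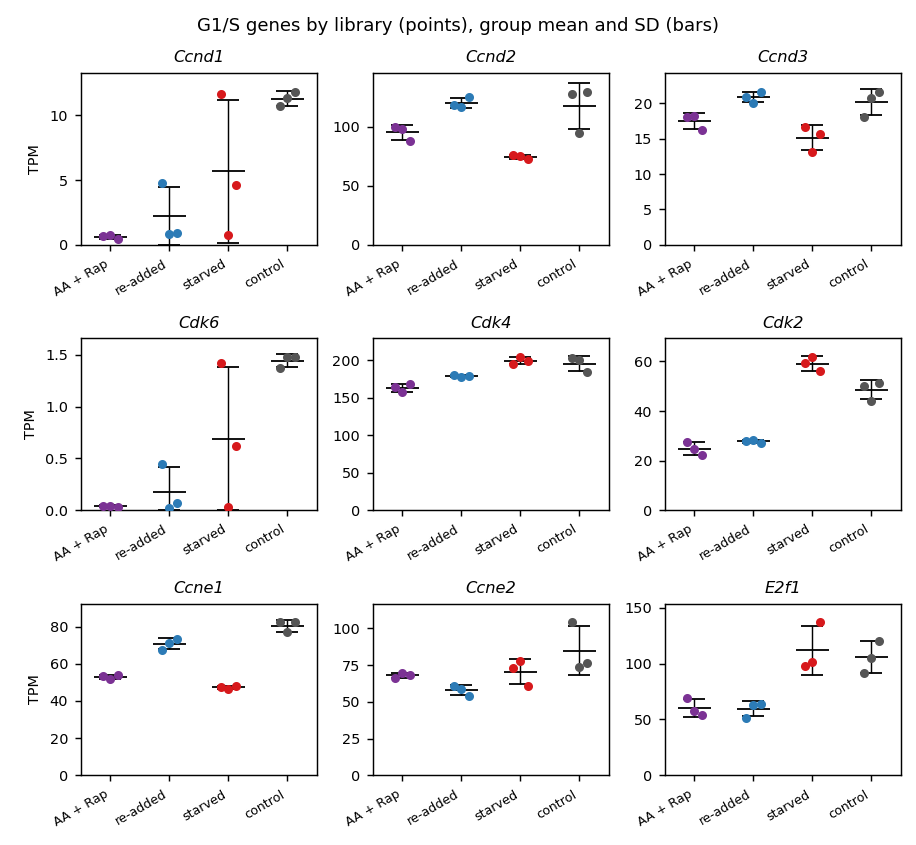
Deposited TPM of the 9 G1/S genes in each library (points), with the mean and SD of each group of 3 (bars), AA + Rap being the Rap group. Ccnd2, Ccnd3 and Ccne1 are lowest in starved cells, Cdk2 and E2f1 are low in the Rap and re-added groups, and Ccnd1 and Cdk6 spread widely within the re-added and starved groups.

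Of the 15 genes of DNA replication, all but Gins2 and Rrm2 were higher in starved than in control cells or not called. Most of the 15 were lower in re-added than in starved cells. The 53 further replication genes counted below tilted the other way in starved against control. There 15 were lower, beside 14.6% of all genes, and 8 were higher, beside 24.3%. Of the licensing factors, Cdt1 (chr8:122568015-122573554, plus strand) stood at 88.9, 86.2 and 87.2 CPM in the Rap libraries, 90, 99.4 and 101 in the re-added, 138, 163 and 168 in the starved and 93.2, 116 and 103 in the control libraries. The starved libraries were above all others, with 0.59 (SE 0.09, adjusted p = 0.000486) against control and -0.69 (SE 0.09, adjusted p = 0.000138) in re-added against starved cells. Cdc6, which loads the helicase together with Cdt1, was not called (-0.15 and 0.08), and was called lower in starved than in control cells without control replicate 2 (-0.19) or starved replicate 1 (-0.21).

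All 6 helicase genes Mcm2 to Mcm7 were lower in re-added than in starved cells, with log2 fold changes of -0.40 (Mcm5) to -0.84 (Mcm7) that were below 0 in every alternative run. In starved against control cells 4 of the 6 were called higher, from 0.27 for Mcm6 to 0.44 for Mcm4, and Mcm3 (0.12) and Mcm5 (0.14) were not called. With upper-quartile factors Mcm3 and Mcm5 came to -0.02 and -0.01, and Mcm6 to 0.13, which was not called. Mcm4 (chr16:15623897-15637400, minus strand) stood at 153, 155 and 158 CPM in the Rap libraries, 141, 152 and 148 in the re-added, 196, 237 and 217 in the starved and 157, 160.2 and 163 in the control libraries. Its starved libraries were above all others, with 0.44 (SE 0.07, adjusted p = 0.00066) against control and -0.56 (SE 0.07, adjusted p = 0.000102) in re-added against starved cells. Mcm6 (chr1:128331590-128359664, minus strand) stood at 319, 306 and 299.5 CPM in the Rap libraries, 285, 299 and 301 in the re-added, 395, 466 and 439 in the starved and 346, 358 and 371 in the control libraries. It was highest in starved and lowest in Rap and re-added libraries, with 0.27 (SE 0.07, adjusted p = 0.00926) against control and -0.55 (SE 0.07, adjusted p = 9.33e-05) in re-added against starved cells. Mcm7 (chr5:138164583-138172422, minus strand) stood at 252, 247 and 252 CPM in the Rap libraries, 189, 180.1 and 179 in the re-added, 301, 353 and 329.7 in the starved and 268, 239 and 258 in the control libraries. No re-added library reached any library of another group. Its log2 fold changes were 0.36 (SE 0.07, adjusted p = 0.00207) in starved against control, -0.84 (SE 0.07, adjusted p = 4.94e-06) in re-added against starved and 0.45 (SE 0.07, adjusted p = 0.00256) in Rap against re-added cells. Mcm2 was higher in starved than in control cells (log2 fold change 0.36, adjusted p = 0.012) and lower in re-added than in starved cells (-0.58).

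**Figure D5:**
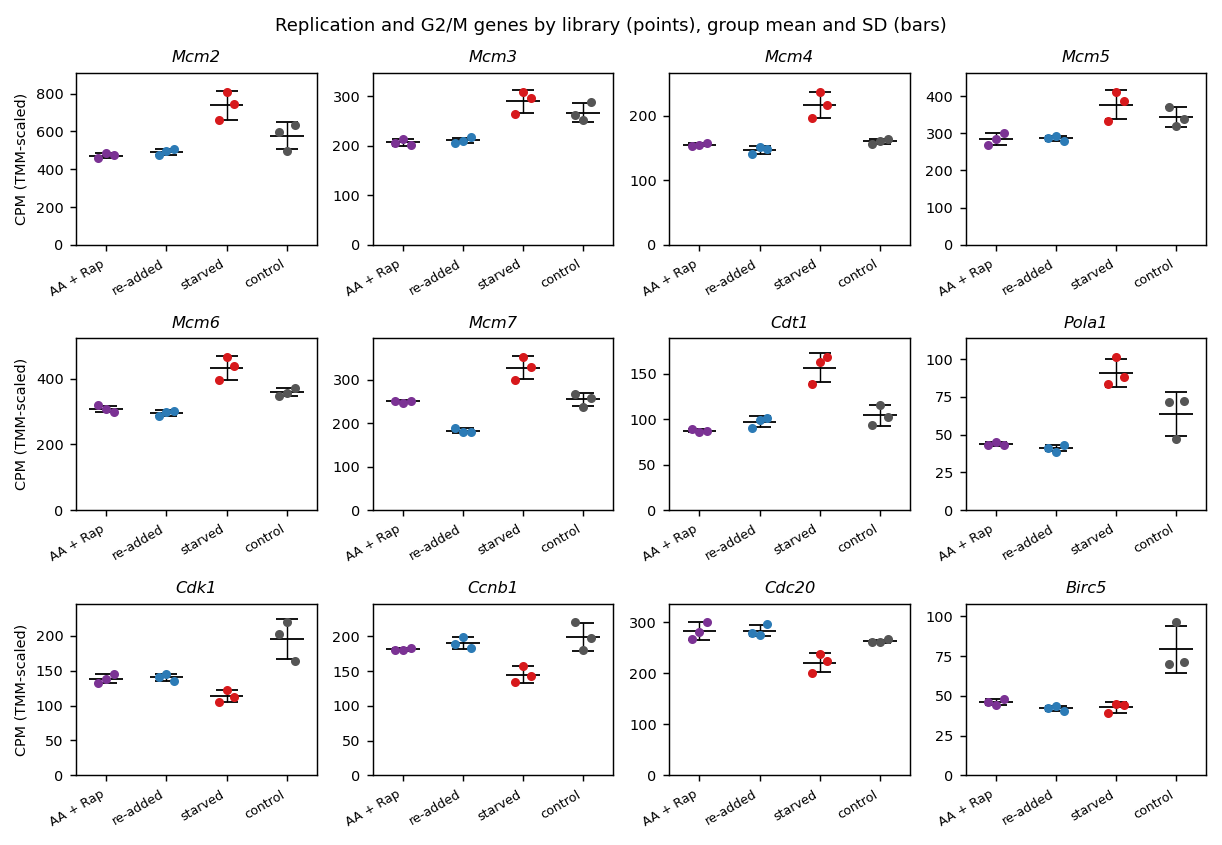
CPM on TMM-scaled library sizes of 8 replication genes and 4 G2/M genes in each library (points), with the mean and SD of each group of 3 (bars), AA + Rap being the Rap group. The replication genes have their highest mean in the starved group, although starved and control libraries overlap for Mcm3 and Mcm5. Cdk1, Ccnb1 and Cdc20 are lowest in the starved libraries, and Birc5 is high in the control libraries.

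At the replication fork Pola1 (chrX:93304767-93632155, minus strand), the catalytic subunit of polymerase α, which begins each new strand with the primase Prim1, stood at 43.3, 45.2 and 43 CPM in the Rap libraries, 41.1, 38.7 and 43 in the re-added, 83.5, 101 and 87.9 in the starved and 71.9, 46.9 and 72.4 in the control libraries. Control replicate 2 was the lowest control library. The log2 fold changes were 0.51 (SE 0.14, adjusted p = 0.0121) in starved against control and -1.15 (SE 0.14, adjusted p = 6.95e-05) in re-added against starved cells. No other of the 15 replication genes had a larger fall on re-addition. Without starved replicate 2 the change against control was 0.43 and not called. Pole, of the leading-strand polymerase, had 0.57 (SE 0.22, adjusted p = 0.0603) and -0.56 (SE 0.22, adjusted p = 0.0645) and was called in neither, but without control replicate 2 it was called in both, at 0.29 and -0.56 (adjusted p = 0.000564), and likewise without control replicate 3, at 0.76 and -0.56 (adjusted p = 0.0487). Prim1 was not called (-0.02 and -0.26), although 5 alternatives called it lower in re-added than in starved cells, among them those without control replicate 1 or 3 (-0.27 each). Pcna, the sliding clamp and at 606 ± 29.1 TPM in Rap cells, 612 ± 18.2 in re-added cells, 887 ± 42.6 in starved cells and 867 ± 46.8 in control cells the most abundant of the 44 genes, was lower in re-added than in starved cells (-0.52, SE 0.09, adjusted p = 0.000954) and not called in starved against control (-0.09).

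Gins2 and the subunits of ribonucleotide reductase, which makes deoxynucleotides, departed from this pattern. Gins2 (chr8:120578633-120589304, minus strand), a part of the active helicase, stood at 43.1, 45.3 and 53.6 CPM in the Rap libraries, 45.6, 41.2 and 42.8 in the re-added, 52.1, 60.3 and 51 in the starved and 85.4, 83.1 and 73.5 in the control libraries. Control libraries were above all others, with -0.57 (SE 0.10, adjusted p = 0.000877) in starved against control and -0.33 (SE 0.10, adjusted p = 0.0201) in re-added against starved cells. The second call was lost without starved replicate 2 (-0.27), re-added replicate 2 (-0.30) or re-added replicate 3 (-0.33), and Gins2 shares 67.3% of its exon length with Gse1 on the other strand. Rrm2 (chr12:24708241-24714146, plus strand), the small reductase subunit, stood at 139, 131 and 131 CPM in the Rap libraries, 139.7, 146 and 139 in the re-added, 98.8, 107 and 104 in the starved and 133, 134 and 125 in the control libraries. Its starved libraries were the lowest of all, with -0.34 (SE 0.06, adjusted p = 0.00106) against control and 0.46 (SE 0.06, adjusted p = 0.000126) in re-added against starved cells, and it was the single replication gene higher on re-addition. The large subunit Rrm1 was lower in re-added than in starved cells (-0.40, SE 0.07, adjusted p = 0.000989) and not called in starved against control (-0.03).

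With starved replicate 1, the starved library with control-like markers, as the sole starved library, 2 of 15 replication genes were higher than in control cells (Cdt1 and Mcm4), beside 9.25% of all genes in that fit, and Mcm2, Mcm6, Mcm7 and Pola1 had 0.21, 0.16, 0.26 and 0.40. With starved replicate 2 against re-added replicates 2 and 3, libraries of like marker levels, 11 of 15 were lower than in starved cells, beside 10.8% of all genes. These fits leave 1 starved library, whose spread is taken to be that of the other groups.

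Of the 20 G2/M genes 12 were lower in starved than in control cells. The A- and B-type cyclins were among them, with -0.47 for Ccna2, -0.46 for Ccnb1 and -0.50 for Ccnb2. Cdk1 (chr10:69336635-69352938, minus strand), the kinase that these cyclins activate, stood at 133, 138 and 145 CPM in the Rap libraries, 141, 146 and 135 in the re-added, 105, 122 and 113 in the starved and 202, 219.9 and 164 in the control libraries. Starved libraries were lowest and control libraries highest, with -0.79 (SE 0.10, adjusted p = 0.000112) in starved against control. Re-added against starved gave 0.31 (SE 0.10, adjusted p = 0.0288), which was lost without re-added replicate 2 (0.28). Ccnb1 (chr13:100778650-100786570, minus strand) stood at 181, 179.8 and 183 CPM in the Rap libraries, 189, 199.7 and 183 in the re-added, 135, 158 and 142 in the starved and 221, 180.4 and 198 in the control libraries. The re-added libraries lay above the starved ones (0.40, SE 0.08, adjusted p = 0.00302) and overlapped the control libraries. Ccna2, not called in re-added against starved cells (0.15), was called there without starved replicate 2 (0.21). Ccnb2 (chr9:70407692-70421547, minus strand) stood at 96.4, 90.1 and 100.2 CPM in the Rap libraries, 79.3, 82.6 and 78.4 in the re-added, 77.3, 81.6 and 78.6 in the starved and 109, 119 and 108 in the control libraries. It was not called in re-added against starved cells (0.02, adjusted p = 0.855), and in starved against control it had an adjusted p of 0.000118.

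Cdc25c and Cdc20 were, like Ccnb1, lower in starved and higher in re-added cells. Cdc25c (chr18:34732997-34751533, minus strand), a phosphatase that activates Cdk1, stood at 20.7, 20.5 and 23 CPM in the Rap libraries, 23.4, 24.2 and 24.7 in the re-added, 15.9, 19 and 16.3 in the starved and 29.5, 30.7 and 25.6 in the control libraries. All 3 starved libraries were below all others, with -0.75 (SE 0.10, adjusted p = 0.000136) in starved against control and 0.50 (SE 0.10, adjusted p = 0.00176) in re-added against starved cells. Cdc20 (chr4:118432901-118437352, minus strand), which activates the anaphase promoting complex, stood at 266, 281 and 300.2 CPM in the Rap libraries, 279, 275 and 295 in the re-added, 201, 237 and 224 in the starved and 261, 260.3 and 266 in the control libraries. The starved libraries were again the lowest, with -0.25 (SE 0.07, adjusted p = 0.0188) against control and 0.36 (SE 0.07, adjusted p = 0.00255) in re-added against starved cells. The call against control was lost by limma on log2(TPM + 1) (-0.13). Plk1, a mitotic kinase, gave -0.45 and 0.30, and the second of these was lost without re-added replicate 2 (0.30) or 3 (0.27).

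The Aurora kinases, Birc5 and the checkpoint kinase Bub1 were lower in starved cells without a rise on re-addition. Birc5 (chr11:117849251-117855743, plus strand), or survivin, of the chromosomal passenger complex, stood at 46.5, 44.4 and 48.2 CPM in the Rap libraries, 42.5, 43.6 and 40.2 in the re-added, 38.9, 45 and 44.2 in the starved and 70.3, 96.5 and 71.4 in the control libraries. Control libraries were above all others, and control replicate 2 was the highest. Starved against control gave -0.89 (SE 0.11, adjusted p = 0.000114) and re-added against starved gave -0.02 (adjusted p = 0.904). Aurka (chr2:172356190-172370535, minus strand), the Aurora kinase of spindle poles, stood at 77.1, 79.8 and 83.3 CPM in the Rap libraries, 87.1, 82.6 and 82.1 in the re-added, 74.3, 86.4 and 77.7 in the starved and 124, 134 and 111 in the control libraries. It fell likewise (-0.63, SE 0.08, adjusted p = 0.00012) and had 0.08 in re-added against starved cells. Aurkb (chr11:69045647-69051664, plus strand), the kinase of the passenger complex, stood at 60.6, 59.6 and 67.9 CPM in the Rap libraries, 60.2, 59.7 and 58.2 in the re-added, 68.3, 82.2 and 74.1 in the starved and 98.5, 101 and 98 in the control libraries. It was lower in starved than in control cells (-0.41, SE 0.08, adjusted p = 0.00139) and lower again in re-added than in starved cells (-0.33, SE 0.08, adjusted p = 0.00485). Bub1 had -0.39 in starved against control, a call that 6 alternatives lost. Among them were the fit without control replicate 1 (-0.28), limma on log2(TPM + 1) (-0.25) and the fit of the 2 groups alone (-0.43).

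The motor and kinetochore genes followed no common course. Kif11 (chr19:37376403-37421859, plus strand), the motor that separates spindle poles, stood at 94.1, 88.4 and 83.9 CPM in the Rap libraries, 82.5, 78.3 and 83.6 in the re-added, 94.2, 119.6 and 100.4 in the starved and 131, 100.1 and 128 in the control libraries. It was lower in re-added than in starved cells (-0.36, SE 0.11, adjusted p = 0.0228), a call lost without starved replicate 2 (-0.27) or re-added replicate 2 (-0.33), and without control replicate 2 it was also called lower in starved than in control cells (-0.30). Cenpe (chr3:135212537-135273611, plus strand), the kinetochore motor, stood at 63.5, 65.1 and 53.5 CPM in the Rap libraries, 64.3, 67.9 and 79.2 in the re-added, 40.7, 53.3 and 45 in the starved and 42.7, 31.3 and 51.2 in the control libraries. It was the G2/M gene with the largest rise on re-addition (0.61, SE 0.16, adjusted p = 0.0117), a call lost without re-added replicate 3 (0.51), and its control libraries overlapped the starved ones. Tpx2, an activator of Aurora A, was lower in starved than in control cells (log2 fold change -0.24, adjusted p = 0.0366), and 10 alternatives lost that call, among them those without control replicate 1 (-0.26) or 3 (-0.18), re-added replicate 2 or 3 or Rap replicate 1 or 2 (-0.24 each). In re-added against starved cells Tpx2 was called higher without re-added replicate 1 or starved replicate 2 (0.23 each). The proliferation marker Mki67 had 0.42 (SE 0.21) in starved against control cells and was not called. Control replicate 2, in which long genes were low, held Mki67 at 0.504 times the mean of control replicates 1 and 3. Of the alternatives only 1 called it higher, that without control replicate 3 (0.65), in which control replicate 2 weighs more. Bub1b, Top2a, Kif23, Cenpf and Foxm1 were called in neither comparison, with log2 fold changes between -0.10 and 0.27 in starved against control and between -0.29 and 0.25 in re-added against starved cells. Without control replicate 2 or 3 (-0.29 each) or starved replicate 1 (-0.34) Bub1b was called lower in re-added than in starved cells.

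With starved replicate 1 alone against control, 11 of 20 G2/M genes were lower, beside 8.88% of all genes. With starved replicate 2 against re-added replicates 2 and 3, 0 of 20 G2/M genes were called higher, beside 9.37% of all genes, and Ccnb1, Cdk1, Cdc20, Cdc25c, Plk1 and Cenpe had 0.34, 0.26, 0.32, 0.42, 0.20 and 0.52.

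Between Rap and re-added cells 3 of the 44 genes were called. Mcm7 was higher in Rap cells, at a mean of 250.4 ± 2.73 CPM in Rap and 183 ± 5.46 CPM in re-added cells (SD, n = 3 each), and this call held in every alternative run. Ccnb2 was higher (0.26, SE 0.06, adjusted p = 0.0306), a call that most alternatives lost, among them the fit without re-added replicate 1 (0.23) and that with the replicate number as a block (0.26, adjusted p = 0.0641). It was also lost without re-added replicate 2 (0.28) or 3 (0.24) and without Rap replicate 1 (0.25) or 3 (0.22). Ccne1 was lower (-0.31, SE 0.07, adjusted p = 0.0189), a call lost without re-added replicate 2 or 3 or Rap replicate 1 or 2, at -0.29 to -0.30. Of the 10 genes that were higher in re-added than in starved cells, Ccnd2 had -0.23 (adjusted p = 0.115) in Rap against re-added cells, and all 3 Rap libraries were below all 3 re-added ones. DESeq2 (-0.24, adjusted p = 0.00976), upper-quartile factors (-0.23), the fit without control replicate 2 (-0.23) and that of the 2 groups alone called Ccnd2. The remaining 19 alternatives did not call it. A fit of these 2 groups alone called 7 of the 44 genes lower, among them Ccnd2 (-0.26), Ccnd3 (-0.18), Plk1 (-0.25) and Cdc25c (-0.20). This was near the share of 14% over all genes in that fit. The same fit kept Mcm7 and Ccnb2 as higher and also called Ccne2 higher (0.31), beside 12% of all genes. The other-cell markers differed here in re-added replicate 1 (652 CPM), and with re-added replicates 2 and 3 alone 1 gene (Mcm7) was higher and 1 (Ccne1) lower, beside 2.95% and 3.1% of all genes.

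The remaining comparisons reuse the same libraries. In Rap against starved cells 10 of the 44 genes were higher, beside 20.2% of all tested genes, and 17 were lower, beside 23.9%, of which 11 were replication genes. Among the D- and E-type cyclins Ccnd2 (0.48), Ccnd3 (0.34) and Ccne1 (0.29) were higher than in starved cells and Ccnd1 (-2.99) was lower. The call of Ccnd2 held in every alternative run. That of Ccnd3 was lost by limma on log2(TPM + 1) (0.2) and without starved replicate 2 (0.25). That of Ccne1 was lost with the marker covariate (0.19). Mcm7 (-0.39) and Pola1 (-1.05) were lower. Ccnb2 had 0.27 here and 0.02 in re-added against starved cells. In re-added against control cells 2 genes were higher, beside 24.8%, and 23 were lower, beside 24.5% of all tested genes. The higher ones were Cenpe (0.75) and Cenpf (0.52), long genes, which control replicate 2 had at a low level. Without that library 1 gene was higher, beside 22.5%, and 25 were lower, beside 18.4%. Apart from Ccnd1 and Cdk6 the largest falls were those of E2f1 (-0.93), Cdk2 (-0.91), Birc5 (-0.91) and Gins2 (-0.90). Ccnd2 (-0.06), Ccnd3 (-0.05) and Ccnb1 (-0.07) were not called, and their re-added libraries overlapped the control ones.

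Inhibitors and brakes of the cycle, 21 genes, were called in both directions. In starved against control cells 5 were higher, beside 24.3% of all genes, and 4 lower, beside 14.6%. The higher ones were Cdkn1a (0.96), Ccng1 (0.69), E2f7 (0.51), Fbxw7 (0.49) and Cdkn1b (0.47). Lower were Cdkn2d (-0.89), E2f5 (-0.59), Gmnn (-0.37), which binds and blocks Cdt1, and Btg1 (-0.36). Cdkn1a, an inhibitor of cyclin-dependent kinases, averaged 329.9 ± 28 CPM in starved and 169.5 ± 14.5 CPM in control cells (SD, n = 3 each). With starved replicate 1 alone 3 inhibitors were higher and 2 lower, beside 9.25% and 8.88% of all genes. In re-added against starved cells 9 inhibitors were lower, beside 18.8% of all genes. Ccng2 had the largest fall (-1.87), followed by E2f8 (-0.65), Wee1 (-0.62), Cdkn1b (-0.51), Gmnn (-0.51), Cdkn1a (-0.50), E2f7 (-0.46), Btg1 (-0.41) and Rb1 (-0.30). Another 3 were higher, beside 18.4%, namely E2f5 (0.66), Cdkn2d (0.38) and E2f4 (0.21). In Rap against re-added cells 6 of the 21 were higher, beside 4.55% of all genes, and 0 lower, beside 3.43%. These were Ccng2 (1.88), Cdkn1c (0.61), Rb1 (0.55), Cdkn1b (0.54), Rbl2 (0.42) and Btg2 (0.28). Ccng2, an atypical cyclin linked to arrest, averaged 47.7 ± 5.6 CPM in Rap and 12.9 ± 1.73 CPM in re-added cells. Leaving out single re-added or Rap libraries left 2 to 6 inhibitors called higher, with 3 without re-added replicate 2, Rap replicate 1 or Rap replicate 2 and 2 without re-added replicate 3 or Rap replicate 3.

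Further genes of each phase were counted in the same way. Over all genes 24.3% were higher and 14.6% lower in starved than in control cells, and 18.4% were higher and 18.8% lower in re-added than in starved cells. Of 63 further G2/M genes tested 28 were lower and 2 higher in starved than in control cells. In re-added against starved cells 13 were higher and 11 lower, and only these re-addition counts were near the shares over all genes. Among the 63 genes Spc25 (-1.22), Ube2s (-0.87) and Cenpm (-0.84) fell most in starved cells. Pttg1 (0.57), Ube2s (0.46) and Ube2c (0.45) rose most on re-addition. In libraries of like marker levels 2 of the 63 were higher on re-addition, beside 9.37% of all genes, and the 11 lower became 6 without re-added replicate 2 and 7 without re-added replicate 3. Of 53 further replication genes 15 were lower and 8 higher in starved than in control cells, while 25 were lower and 7 higher on re-addition, with the largest falls in Ung (-1.33), Chaf1b (-1.21) and Pola2 (-1.07). The 8 higher became 5, 3, 3 and 4 without control replicate 1, starved replicate 2, starved replicate 3 and re-added replicate 1, and 0 with starved replicate 1 alone, and the 15 lower became 9 without control replicate 1. Among 15 further G1/S genes 4 were higher and 4 lower in starved than in control cells. Tfdp2, a partner of E2F factors, was 0.93 in starved against control, -1.59 in re-added against starved and 0.91 in Rap against re-added cells, and Mycn was 0.70, -0.92 and 0.49, each called. In Rap against re-added cells these were the 2 calls of the list, beside 4.55% higher over all genes, and 1 was left without re-added replicate 1 or 2 or any Rap replicate. Of 5 genes of growth input to cyclin D in β-cells, Irs2 (1.52) and Igf1r (0.94), which carry insulin and growth factor signals, were higher in starved than in control cells, and the receptor genes Prlr (-0.60) and Met (-0.40) were lower. The 2 lower ones became 1 without control replicate 1 or 3, starved replicate 2 or 3, re-added replicate 2 or 3, or Rap replicate 1 or 3.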

How the data were processed

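RNA of 12 MIN6 libraries was sequenced as paired ends of 150 bases, per the labels' protocols. The authors deposited raw read counts per Ensembl gene, 1 file a library, with exon coordinates, strand and exon length per the file headers, and a table of TPM values with gene names. The TPM table could be rebuilt from counts and exon lengths to within 5e-05. The submitters' processing notes name the build GRCm38.p6 and the tools Subread 2.0.1 and limma 3.46.0 without a role. Aligner, annotation release and strand setting were not given in the sources used here, so overlapping genes cannot be told apart with certainty. Of 49315 genes 174 had no name, and 0 columns of the TPM table belonged to other samples. Library totals ran from 18555958 to 25631056 reads.

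The analysis ran edgeR 4.0.16 in R 4.3.3 on the counts as deposited: filterByExpr (minimum count 10, minimum total 15), TMM scaling, and 1 quasi-likelihood fit of the 4 group means over 12 libraries with 8 residual degrees of freedom. Contrasts were adjusted by Benjamini-Hochberg over 16844 genes at a threshold of 0.05. CPM values beside fold changes use TMM-scaled library sizes, and marker sums use raw totals. Alternatives were upper-quartile and RLE factors, no filter, DESeq2 1.42.0, limma 3.58.1 on log2(TPM + 1) and log2(TPM + 0.1), a replicate block, the log2 marker sum as a covariate, fits of 2 groups, libraries matched on marker levels, and leaving out each library. The routines were tested on simulated counts. Promoter windows and gene starts are RefSeq's. The 44 genes, the pathway and marker lists, the tests and the matched libraries were chosen with earlier results of these data known. The 44 genes could all be named. Values by library were given to the D- and E-type cyclins and their kinases and to the called genes with the smallest adjusted p, up to 4 a phase, direction and main comparison. Other pathway genes were named if called, as inhibitors or as 1 of the 3 largest changes of a list, and some genes so taken are not printed. Itgam was left out of the marker sums because its symbol has 2 rows. No proteins were compared.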

Additional observations from a re-analysis of the deposited data

How the results depend on the processing

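Of 5014 values of single genes under alternatives, 4689 stayed on their side of the threshold, 166 lost a call, 156 gained one and 3 called values changed sign. Among the 4689, another 167 changed sign at 2 decimals without a call on either side, 81 of them in the limma fits, and 153 had a reported value within 0.1 of 0. The called values that changed sign are Ccnd1 and Cdk6 in re-added against control with the marker sum as a covariate (0.05 and 0.02), and Cdk6 in Rap against starved with matched libraries (0.28). In starved against control the 6 higher genes became 10 by limma on log2(TPM + 1) and on log2(TPM + 0.1), 3 in a fit of the 2 groups alone and 2 with matched libraries, and the 18 lower ones became 15 to 20 when single libraries were left out (5 to 8 for the higher). In re-added against starved the 10 higher genes became 4 with matched libraries, and leaving out single libraries gave 8 to 12 higher and 13 to 18 lower. In Rap against re-added the 2 higher genes became 1 with no filter, in each of the 3 limma fits, with the replicate block, with the marker covariate and with matched libraries, and 1 to 2 when single libraries were left out. The 1 lower gene became 2 with upper-quartile factors or DESeq2, 6 by limma on log2(TPM + 1) and on log2(TPM + 0.1), 3 on log2(TPM + 1) with no filter, 7 in the fit of the 2 groups and 0 to 2 when single libraries were left out. In Rap against starved the 10 higher genes became 6 on log2(TPM + 1) and on log2(TPM + 0.1), 5 on log2(TPM + 1) with no filter, 3 with the marker covariate and 3 with matched libraries (8 to 11 higher and 13 to 20 lower when single libraries were left out). In re-added against control the 2 higher genes became 4 in each of the 3 limma fits, 0 with the covariate and 1 in the fit of the 2 groups (1 to 3 higher and 19 to 28 lower when single libraries were left out). The F test called 36 to 40 genes when single libraries were left out. Calls over all genes moved too. In starved against control 4101 of 16844 genes were higher as analysed and 5463 by limma on log2(TPM + 1). The fit of the 2 groups alone called 2449 of 16440 higher. In Rap against re-added 578 were lower as analysed and 1378 by limma on log2(TPM + 1). The fit of these 2 groups alone called 2130 of 15187 lower. The causes of the changes were not tested.

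Most same-numbered libraries did not vary together: of 18 same-numbered pairs 2 had a correlation of deviations over 0.1, with a range of -0.33 to 0.81. These 2 were starved with re-added replicate 1 (0.81) and starved with re-added replicate 2 (0.67), and replicate 3 of these groups gave -0.33. Starved replicate 2 and re-added replicate 3, of like marker levels, gave 0.63. Whether starved and re-added libraries were paired cannot be told apart from their marker levels. With the replicate number as a block 6 genes were higher and 18 lower in starved against control, 10 and 15 in re-added against starved, 1 and 1 in Rap against re-added, 9 and 17 in Rap against starved, and 2 and 24 in re-added against control. Depth limits the values of Ccnd1 and Cdk6, which rest on 18 and 2 reads in their lowest libraries. Reads of overlapping genes on the other strand may enter Gins2, Ccnd1, Cdk4 (18.6% of its exon length shared with Tspan31) and Ccne2. They may also enter Ccna2 (12.5% shared with Exosc9), Mcm7 (7.25% with Ap4m1 and 1.45% with Cops6) and other genes with smaller overlaps.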
